A study of Mus musculus with 9 samples.

Results

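Amino acids that pass the glomerular filter are taken back by the proximal tubule, and 10 mouse genes of that transport were followed here, of 56923 genes in the count table. They were found by mapping the Ensembl identifiers to symbols, and all 10 passed the filter on low counts. The 7 apical genes, whose products face the tubule lumen, are Slc6a18, Slc6a19, Slc6a20b, Slc1a1, Slc7a13, Slc3a1 and Slc7a9. The 3 basolateral genes, whose products face the blood, are Slc7a7, Slc7a8 and Slc3a2.

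The 9 RNA libraries came from kidneys of wild-type mice (genotype WT), with 3 libraries in each of 3 groups. The PTPi@mEVs group was made up of mice with acute kidney injury (AKI) that were given milk-derived extracellular vesicles loaded with siRNA to PTP1B, the phosphatase encoded by Ptpn1. The AKI PBS group was injured and given phosphate-buffered saline. The sham group was operated on but spared the ischemia-reperfusion (IR) injury, and PBS is the treatment on its labels too. Both injured groups share the injury, and with no arm of unloaded vesicles or of another siRNA among these libraries, the vesicle and its cargo cannot be told apart. The labels give no age, sex or strain name, no time after injury and no library batch. Whether replicate libraries stem from different mice is not stated either, so the p-values reflect library-to-library spread, which may be technical.

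Uptake from the tubule lumen and exit into the blood need different carriers. Neutral amino acids enter through sodium-driven carriers of the Slc6 family, and acidic ones through Slc1a1. Cystine and dibasic amino acids enter through the light chain Slc7a9 (b0,+AT), which reaches the membrane only with its heavy chain Slc3a1 (rBAT), and both are known for cystinuria when mutated in humans. On the blood side the light chains Slc7a7 (y+LAT1) and Slc7a8 (LAT2) pair with another heavy chain, Slc3a2 (4F2hc), which many other tissues also use. Slc7a13 (AGT1) is a second partner of Slc3a1 in mouse, found in the straight segment of the proximal tubule and higher in males than in females.

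Promoter sequence is shown for the heavy chains Slc3a1 and Slc3a2, which moved in opposite directions in AKI PBS against sham kidneys. It is also shown for Slc7a7, the partner of Slc3a2 that moved against it there. Each window runs from 250 bases before to 50 bases after a RefSeq start in GRCm38.p6, is written 5′ to 3′ on the strand of the gene, and carries in capitals the letters of a searched motif.
Slc3a1 (chr17:85028097-85028396, plus strand): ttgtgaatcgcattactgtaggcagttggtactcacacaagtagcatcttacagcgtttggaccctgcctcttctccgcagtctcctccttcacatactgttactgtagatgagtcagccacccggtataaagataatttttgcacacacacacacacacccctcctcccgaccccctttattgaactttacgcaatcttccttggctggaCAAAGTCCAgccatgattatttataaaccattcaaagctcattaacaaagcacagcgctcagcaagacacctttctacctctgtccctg
Slc7a7 (chr14:54417895-54418194, minus strand): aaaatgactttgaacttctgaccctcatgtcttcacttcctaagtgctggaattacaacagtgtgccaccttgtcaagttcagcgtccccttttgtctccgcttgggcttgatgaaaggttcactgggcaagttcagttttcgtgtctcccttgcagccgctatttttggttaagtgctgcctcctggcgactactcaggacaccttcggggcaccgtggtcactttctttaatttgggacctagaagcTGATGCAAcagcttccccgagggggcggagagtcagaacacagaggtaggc
Slc3a2 (chr19:8713848-8714147, minus strand): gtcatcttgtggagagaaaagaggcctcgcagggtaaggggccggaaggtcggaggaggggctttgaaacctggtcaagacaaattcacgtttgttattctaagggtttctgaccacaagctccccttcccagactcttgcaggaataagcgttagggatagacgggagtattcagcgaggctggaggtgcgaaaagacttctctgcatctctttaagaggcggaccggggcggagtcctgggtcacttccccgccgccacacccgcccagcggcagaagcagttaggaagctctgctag
The letters searched on both strands were CAAAGTCCA (HNF4) and TTGCATCA (ATF4 and C/EBP), which do not overlap in the windows shown. The Slc3a1 window holds the HNF4 letters from base -39 relative to the start. The Slc7a7 window holds the ATF4 and C/EBP letters on the opposite strand from base -1, and the Slc3a2 window holds neither motif. Of 27025 genes with a promoter in the table, 0.555% hold the HNF4 letters and 1.03% the ATF4 and C/EBP letters. A promoter was matched for 8 of the 10 genes, in 13 windows, and besides those shown only an overlapping Slc7a7 window held either motif, with the same ATF4 and C/EBP letters. These matches describe letters in a window and not binding.

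Library totals lay between 9467851 and 11389479 counts, and each transporter gene had 447 to 10811 counts per library, so counting error was small beside the spread between libraries. Levels are given in CPM, counts scaled to a common library size after TMM, a factor that evens out library composition. Fold changes are on the log2 scale with their standard error, and a gene is called where edgeR's quasi-likelihood test gave a Benjamini-Hochberg adjusted p under 0.05 over all 17036 genes tested. Injury with PBS called 55.7% of all genes tested, PTPi@mEVs against AKI PBS called 51.1%, and PTPi@mEVs against sham called 13.2%, so the calls below are read beside these shares. The last share was unsteady, at 4.95% without PTPi@mEVs replicate 2 and 19.5% without AKI PBS replicate 3. Ptpn1 averaged 102 ± 6.94 CPM in PTPi@mEVs kidneys, 147 ± 23.8 CPM in AKI PBS kidneys and 90.1 ± 8.91 CPM in sham kidneys (SD, n = 3 each). Replicate 3 of the AKI PBS group stood apart, with a chi-square per degree of freedom of 31.1 and 28.5 against replicates 1 and 2, which gave 12.2 against each other. All 9 libraries held over 50 counts of each of 4 Y-linked genes, and Xist had 1 to 5 counts.

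Most of the apical transport genes were lower in AKI PBS than in sham kidneys and higher in PTPi@mEVs than in AKI PBS kidneys, and 1 of them, Slc7a13, was also below sham in PTPi@mEVs kidneys. Of the 7 apical genes, 5 were called lower in AKI PBS than in sham kidneys, with 27.9% of all genes tested called lower. DESeq2 and limma voom called 6 of the 7 lower in that comparison. Of the same 7 genes, 6 were called higher in PTPi@mEVs than in AKI PBS kidneys, with 25.4% of all genes called higher and 25.8% called lower. Of all 10 transporter genes, 0 were called lower in that comparison by edgeR, DESeq2 or limma voom. Unadjusted p-values under 0.05 for a lower level numbered 0 with edgeR and 1, that of Slc3a2, with either other tool. Against sham, 1 of 7 was called lower in PTPi@mEVs kidneys, with 5.79% of all genes called lower. These comparisons share libraries and are not independent of each other. The count of 6 higher fell to 5, by the loss of Slc7a13, with DESeq2, with no low-count filter, and without AKI PBS replicate 1 or 2 or PTPi@mEVs replicate 1 or 3. The count of 5 lower in AKI PBS against sham kidneys was 5 to 6 with 1 library left out and 7 with no low-count filter. With no filter, 5598 of 34890 genes tested were called lower in that comparison. The median change of the 7 genes was 1.70 in PTPi@mEVs against AKI PBS, -1.64 in AKI PBS against sham and -0.14 in PTPi@mEVs against sham kidneys, where the median of all genes tested was -0.025, 0.028 and -0.010 in the same order of comparisons. The summed level of the 7 apical genes was 2391 ± 188 CPM in PTPi@mEVs kidneys, 1080 ± 127 CPM in AKI PBS kidneys and 3023 ± 359 CPM in sham kidneys (SD, n = 3 each). Without Slc7a13 the other 6 summed to 2225 ± 190 CPM in PTPi@mEVs kidneys, 1006 ± 162 CPM in AKI PBS kidneys and 2180 ± 103 CPM in sham kidneys. In bulk tissue, fewer tubule cells and less RNA per cell cannot be told apart.

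**Figure D1:**
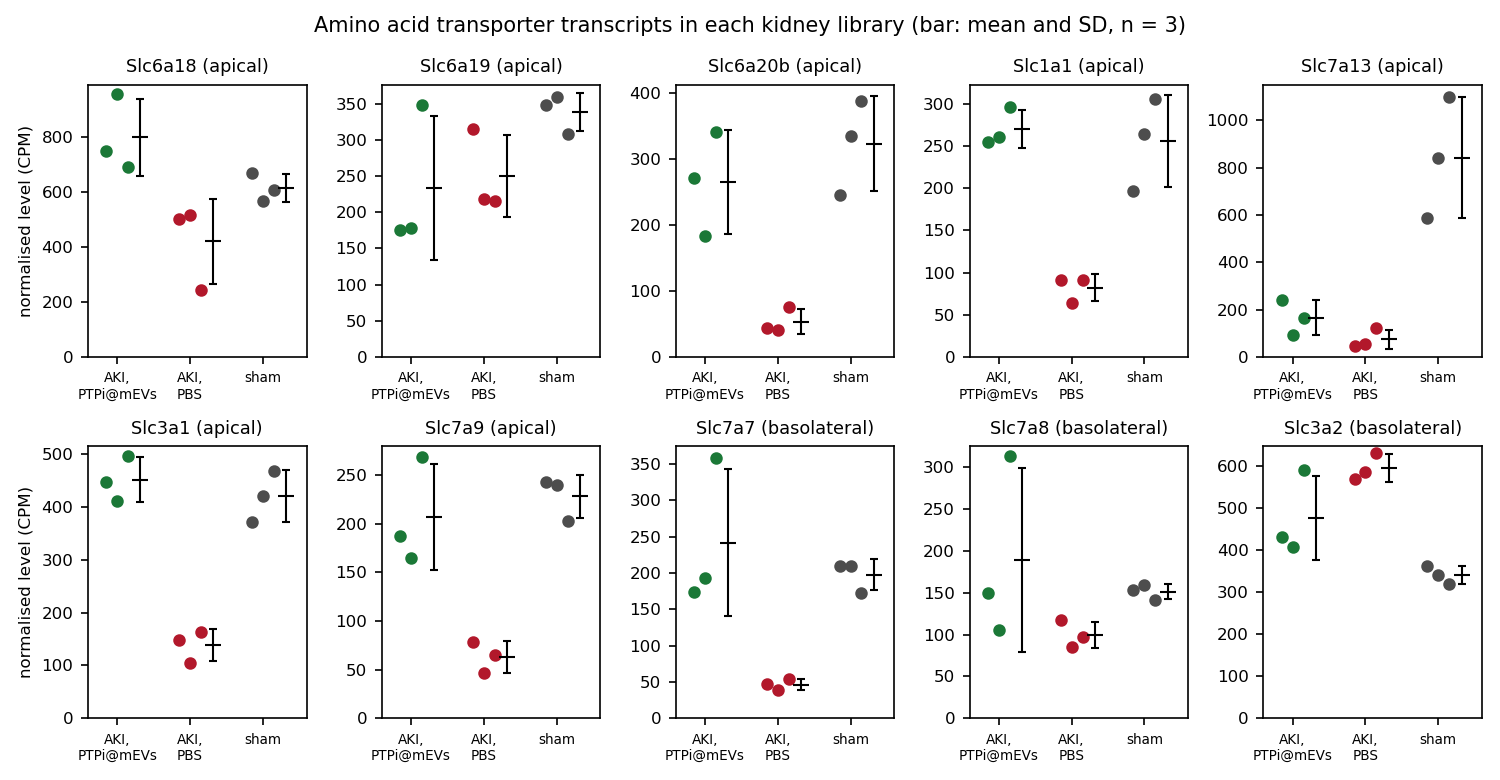
Normalised level (CPM, linear axis from 0) of each of the 10 transporter genes in every library, with points for the 3 libraries of each group and a bar for the mean and SD. Slc6a20b, Slc1a1, Slc3a1, Slc7a9 and Slc7a7 are low in all 3 AKI PBS libraries, Slc3a2 is high there, and Slc7a13 is high in the sham libraries only.

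The cystine transporter was low on both its chains in AKI PBS kidneys. Slc3a1, the heavy chain, had 447, 412 and 496 CPM in PTPi@mEVs kidneys, 148, 105 and 164 CPM in AKI PBS kidneys, and 371, 421 and 468 CPM in sham kidneys. Every AKI PBS library lay under every library of the other groups, and the PTPi@mEVs and sham libraries overlapped. Slc3a1 rose by 1.70 ± 0.17 in PTPi@mEVs against AKI PBS kidneys (edgeR adjusted p = 1.02e-05) and fell by 1.60 ± 0.17 in AKI PBS against sham kidneys (edgeR adjusted p = 1.01e-05). Its difference between PTPi@mEVs and sham kidneys was 0.10 on the log2 scale with a 95% interval of -0.26 to 0.47.

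Slc7a9, the light chain that does the transport, had 187, 165 and 269 CPM in PTPi@mEVs kidneys, 78.8, 46.1 and 64.7 CPM in AKI PBS kidneys, and 243, 239 and 203 CPM in sham kidneys. The AKI PBS libraries again lay below all others. The log2 change was 1.71 ± 0.22 in PTPi@mEVs against AKI PBS kidneys (edgeR adjusted p = 4.43e-05) and -1.85 ± 0.22 in AKI PBS against sham kidneys (edgeR adjusted p = 1.76e-05). PTPi@mEVs and sham kidneys differed by -0.14, with a 95% interval of -0.59 to 0.31. The ratio of Slc7a9 to Slc3a1 counts within a library averaged -1.15 ± 0.24 in PTPi@mEVs kidneys, -1.15 ± 0.22 in AKI PBS kidneys and -0.88 ± 0.30 in sham kidneys on the log2 scale (SD, n = 3 each). The groups overlapped, and the exact permutation p of the 3 differences was 1 for PTPi@mEVs against AKI PBS, 0.3 for AKI PBS against sham and 0.2 for PTPi@mEVs against sham.

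Slc1a1 (EAAC1), the glutamate and aspartate carrier of the brush border, followed Slc3a1 closely. It had 255, 261 and 296 CPM in PTPi@mEVs kidneys, 91.4, 63.3 and 91.7 CPM in AKI PBS kidneys, and 197, 265 and 306 CPM in sham kidneys. Its AKI PBS libraries did not overlap with the others, and PTPi@mEVs lay within the sham range. Slc1a1 rose by 1.72 ± 0.19 in PTPi@mEVs against AKI PBS kidneys (edgeR adjusted p = 1.53e-05) and fell by 1.64 ± 0.19 in AKI PBS against sham kidneys (edgeR adjusted p = 1.49e-05). Over the 9 libraries the centred log2 CPM profiles of Slc1a1 and Slc3a1 lay 0.09 apart (root-mean-square distance), against 0.24 for the partners Slc7a9 and Slc3a1.

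The Slc6 carriers did not move as a block. Slc6a20b, the paralog of the mouse imino acid carrier Slc6a20a, had 272, 184 and 341 CPM in PTPi@mEVs kidneys, 44.1, 40.9 and 75.6 CPM in AKI PBS kidneys, and 246, 336 and 388 CPM in sham kidneys. All 3 AKI PBS libraries were far below the rest. It rose by 2.31 ± 0.28 in PTPi@mEVs against AKI PBS kidneys (edgeR adjusted p = 3.79e-05) and fell by 2.59 ± 0.28 in AKI PBS against sham kidneys (edgeR adjusted p = 1.19e-05). Its neighbour Slc6a20a moved the same way by less, by 0.65 ± 0.16 in PTPi@mEVs against AKI PBS kidneys (edgeR adjusted p = 0.0054) and by -1.12 ± 0.16 in AKI PBS against sham kidneys (edgeR adjusted p = 9.62e-05).

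Slc6a19 (B0AT1), the main neutral amino acid carrier of the brush border and the gene of Hartnup disorder in humans, passed in none of the comparisons. It had 175, 178 and 349 CPM in PTPi@mEVs kidneys, 315, 218 and 216 CPM in AKI PBS kidneys, and 349, 359 and 309 CPM in sham kidneys. Replicate 3 of the PTPi@mEVs group and replicate 1 of the AKI PBS group lay within the sham range, and the other injured libraries lay below it. The log2 difference was -0.09 (95% interval -0.62 to 0.44) between PTPi@mEVs and AKI PBS kidneys and -0.44 (-0.97 to 0.09) between AKI PBS and sham kidneys. Between PTPi@mEVs and sham kidneys it was -0.53 (-1.07 to -0.0042), with an edgeR adjusted p of 0.17. Without replicate 3 of the PTPi@mEVs group that last difference was -0.93 and passed, at an edgeR adjusted p of 0.011. With no low-count filter, Slc6a19 passed below sham in both injured groups, at edgeR adjusted p of 0.013 for PTPi@mEVs and 0.0101 for AKI PBS kidneys. The AKI PBS against sham difference also passed, at -0.44 and -0.45, when only these groups were fitted (edgeR adjusted p = 0.049) and without PTPi@mEVs replicate 3 (edgeR adjusted p = 0.037).

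Slc6a18 (B0AT3), a carrier of glycine and alanine known from the later proximal tubule of mouse, had 747, 953 and 690 CPM in PTPi@mEVs kidneys, 499, 515 and 242 CPM in AKI PBS kidneys, and 669, 567 and 605 CPM in sham kidneys. The 3 groups did not overlap, with PTPi@mEVs on top and AKI PBS at the bottom. Slc6a18 rose by 0.93 ± 0.24 in PTPi@mEVs against AKI PBS kidneys (edgeR adjusted p = 0.0063), or by 0.66 without the low AKI PBS replicate 3 (edgeR adjusted p = 0.0056). The difference of -0.55 ± 0.24 between AKI PBS and sham kidneys missed the threshold (edgeR adjusted p = 0.066), and it passed in DESeq2 (adjusted p = 0.046) and limma voom (adjusted p = 0.044). Without AKI PBS replicate 3 it was -0.28 and missed the threshold at an edgeR adjusted p of 0.17. It passed without AKI PBS replicate 1 at -0.70 and without AKI PBS replicate 2 at -0.73, at edgeR adjusted p of 0.045 and 0.038.

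Both Slc6a18 and Slc6a19 need collectrin (Cltrn) to reach the brush border. Cltrn averaged 789 ± 114 CPM in PTPi@mEVs kidneys, 742 ± 147 CPM in AKI PBS kidneys and 976 ± 15 CPM in sham kidneys (SD, n = 3 each), and it passed in no comparison.

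Slc7a13 was called below sham in both injured groups, and no other of the 10 genes was. It had 242, 92.1 and 163 CPM in PTPi@mEVs kidneys, 44.7, 54.2 and 121 CPM in AKI PBS kidneys, and 585, 843 and 1098 CPM in sham kidneys. Every injured library was far below every sham library, and the injured groups overlapped each other. Its mean was 19.7% of sham in PTPi@mEVs kidneys and 8.70% of sham in AKI PBS kidneys. The log2 change was -3.52 ± 0.45 in AKI PBS against sham kidneys (edgeR adjusted p = 7.20e-05) and -2.34 ± 0.43 in PTPi@mEVs against sham kidneys (edgeR adjusted p = 0.0061). With no low-count filter the PTPi@mEVs against sham value was -2.34 with an edgeR adjusted p of 0.057, and Slc6a19 in its place was called below sham in both injured groups.

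The rise of Slc7a13 by 1.18 ± 0.42 in PTPi@mEVs against AKI PBS kidneys had an edgeR adjusted p of 0.034. The call was lost at nearly the same fold in DESeq2, at 1.17 (adjusted p = 0.058), and with no low-count filter, at 1.22 (edgeR adjusted p = 0.17). The call was also lost without AKI PBS replicate 1 or 2, at 0.93 and 1.0 on the log2 scale (edgeR adjusted p = 0.0887 and 0.0921). It was lost without PTPi@mEVs replicate 1 or 3, at 0.81 and 1.21 (edgeR adjusted p = 0.16 and 0.074), and it was 1.75 without AKI PBS replicate 3 (edgeR adjusted p = 0.0047). The ratio of Slc7a13 to its heavy chain Slc3a1 was -0.88, -2.16 and -1.61 in PTPi@mEVs kidneys, -1.73, -0.95 and -0.44 in AKI PBS kidneys, and 0.66, 1.0 and 1.23 in sham kidneys, on the log2 scale. In sham kidneys Slc7a13 counts exceeded Slc3a1 counts in every library, and in the injured kidneys they were below them in every library.

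Markers of the straight and of the early proximal tubule give the setting of Slc7a13. Of 6 straight-segment markers, 6 were called lower in AKI PBS against sham kidneys, and 4 were still called lower in PTPi@mEVs against sham kidneys, with medians of -2.11 and -1.15. Among all genes tested, 27.9% were called lower in the first of these comparisons and 5.79% in the second. Between PTPi@mEVs and AKI PBS kidneys 2 of the 6 were called higher, with 25.4% of all genes called higher. With DESeq2 or without AKI PBS replicate 3, 4 of the 6 were called higher. The count was 1 of 6 when only the groups compared were fitted. It was also 1 without AKI PBS replicate 1 or 2 or PTPi@mEVs replicate 1 or 3. Cyp7b1, an oxysterol hydroxylase, differed from sham by -2.93 ± 0.33 in PTPi@mEVs kidneys (edgeR adjusted p = 0.00045) and by -3.75 ± 0.35 in AKI PBS kidneys (edgeR adjusted p = 5.23e-06). Of 7 early-segment markers, 0 were called in PTPi@mEVs against sham kidneys by edgeR, DESeq2 or limma voom (median -0.10). In this comparison edgeR called 13.2% of all genes, and 1 of the 7 had an unadjusted p under 0.05 with each tool. In AKI PBS against sham kidneys 5 were called lower (median -1.69). The creatine synthesis enzyme Gatm and the endocytic receptors Lrp2 and Cubn were among these 5. The summed straight-segment markers were 4360 ± 253 CPM in PTPi@mEVs kidneys, 2795 ± 1123 CPM in AKI PBS kidneys and 7553 ± 1512 CPM in sham kidneys (SD, n = 3 each). The summed early-segment markers were 6529 ± 1870 CPM, 3375 ± 670 CPM and 8319 ± 659 CPM in the same order of groups. The part of this marker shift in the Slc7a13 result was not tested.

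**Figure D2:**
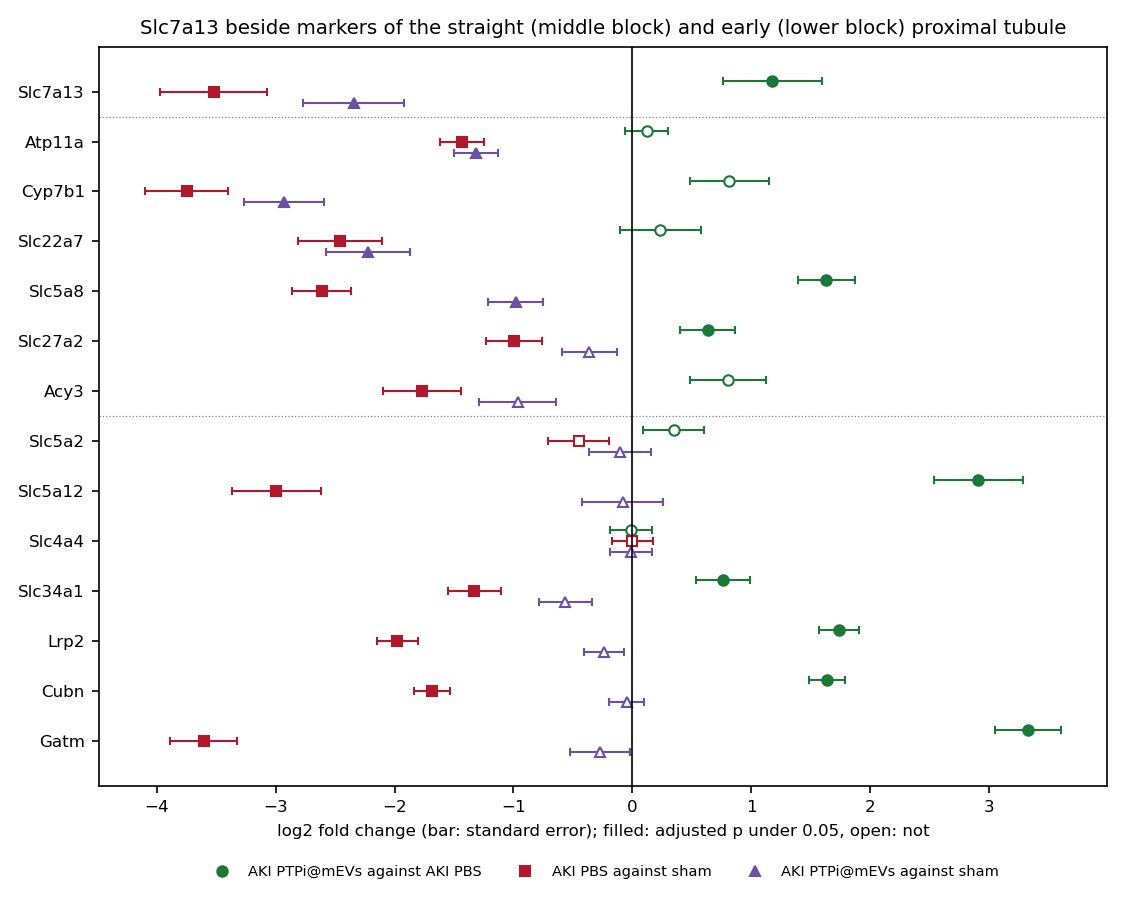
Log2 fold change (bars are the standard error, filled symbols have an edgeR adjusted p under 0.05) of Slc7a13 at the top, 6 straight-segment markers in the middle and 7 early-segment markers below, for PTPi@mEVs against AKI PBS (circles), AKI PBS against sham (squares) and PTPi@mEVs against sham (triangles). The triangle of Slc7a13 lies at -2.34. Those of the straight-segment markers lie between -2.93, the value of Cyp7b1, and -0.36. Those of the early-segment markers lie between -0.57 and -0.01, with Cubn at -0.05 and Gatm at -0.28, and none of these was called.

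On the blood side Slc7a7 fell and the heavy chain Slc3a2 rose in AKI PBS against sham kidneys, while Slc7a8 did not pass. Of the 3 basolateral genes, 1 was called lower and 1 higher in AKI PBS against sham kidneys, with 27.9% of all genes called lower and 27.8% called higher. In PTPi@mEVs against AKI PBS kidneys 2 were called higher, with 25.4% of all genes called higher. That count was 1 without AKI PBS replicate 2 or 3 or PTPi@mEVs replicate 3. The median change of the 3 genes was 0.92 in PTPi@mEVs against AKI PBS, -0.60 in AKI PBS against sham and 0.32 in PTPi@mEVs against sham kidneys, and each of these is the value of Slc7a8. In PTPi@mEVs against sham kidneys edgeR and limma voom called 0 of them, with 7.43% of all genes called higher, and DESeq2 called 1, Slc3a2. Slc3a2 was also the 1 gene with an unadjusted p under 0.05 there with each tool. The summed level of the 3 genes was 907 ± 308 CPM in PTPi@mEVs kidneys, 741 ± 37.3 CPM in AKI PBS kidneys and 688 ± 48.9 CPM in sham kidneys (SD, n = 3 each). Slc3a2 held most of this sum in AKI PBS kidneys, where the means of Slc7a7 and Slc7a8 lay below sham.

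Slc7a7, the exit path of dibasic amino acids and the gene of lysinuric protein intolerance in humans, had 173, 193 and 359 CPM in PTPi@mEVs kidneys, 47.4, 38.3 and 53.6 CPM in AKI PBS kidneys, and 209, 210 and 173 CPM in sham kidneys. The AKI PBS libraries were tightly grouped and well below all others. Slc7a7 rose by 2.38 ± 0.25 in PTPi@mEVs against AKI PBS kidneys (edgeR adjusted p = 1.24e-05) and fell by 2.09 ± 0.25 in AKI PBS against sham kidneys (edgeR adjusted p = 2.04e-05). Between PTPi@mEVs and sham kidneys the difference was 0.29, with a 95% interval of -0.22 to 0.80. It was -0.10 without PTPi@mEVs replicate 3, the highest library.

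Slc3a2, the heavy chain of Slc7a7 and Slc7a8, had 430, 408 and 590 CPM in PTPi@mEVs kidneys, 569, 584 and 631 CPM in AKI PBS kidneys, and 361, 340 and 319 CPM in sham kidneys. Both injured groups lay above sham in every library, and they overlapped each other through PTPi@mEVs replicate 3. Slc3a2 rose by 0.81 ± 0.15 in AKI PBS against sham kidneys (edgeR adjusted p = 0.00074). The difference of 0.49 ± 0.15 between PTPi@mEVs and sham kidneys (95% interval 0.15 to 0.82) missed the threshold at an edgeR adjusted p of 0.055. It passed in DESeq2 (adjusted p = 0.025), with no low-count filter (edgeR adjusted p = 0.022) and without AKI PBS replicate 3 (edgeR adjusted p = 0.038).

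Between the injured groups Slc3a2 differed by -0.32 ± 0.15 (95% interval -0.65 to 0.01), which missed the threshold at an edgeR adjusted p of 0.098. It passed at -0.43 when libraries were scaled by their totals alone (edgeR adjusted p = 0.024) and at -0.49 without PTPi@mEVs replicate 3 (edgeR adjusted p = 0.019). The heavy chains thus had opposite signs in AKI PBS against sham kidneys, at 0.81 for Slc3a2 and -1.60 for Slc3a1.

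Slc7a8 (LAT2), a neutral amino acid exchanger, had 149, 105 and 313 CPM in PTPi@mEVs kidneys, 117, 85.5 and 96.5 CPM in AKI PBS kidneys, and 154, 159 and 141 CPM in sham kidneys. A single PTPi@mEVs library, replicate 3, lay far above the rest, and PTPi@mEVs replicate 2 lay within the AKI PBS range. Slc7a8 rose by 0.92 ± 0.31 in PTPi@mEVs against AKI PBS kidneys (edgeR adjusted p = 0.025). The value was 0.37 without PTPi@mEVs replicate 3 (edgeR adjusted p = 0.13), and the call was also lost without AKI PBS replicate 2 or 3, at 0.83 and 0.91 (edgeR adjusted p = 0.075 and 0.080). AKI PBS and sham kidneys differed by -0.60 ± 0.31 (edgeR adjusted p = 0.11) with no overlap between their libraries. That difference passed when only the groups compared were fitted (edgeR adjusted p = 0.0061) and without PTPi@mEVs replicate 2 or 3 (edgeR adjusted p = 0.033 and 0.00877), and with no low-count filter (edgeR adjusted p = 0.014).

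**Figure D3:**
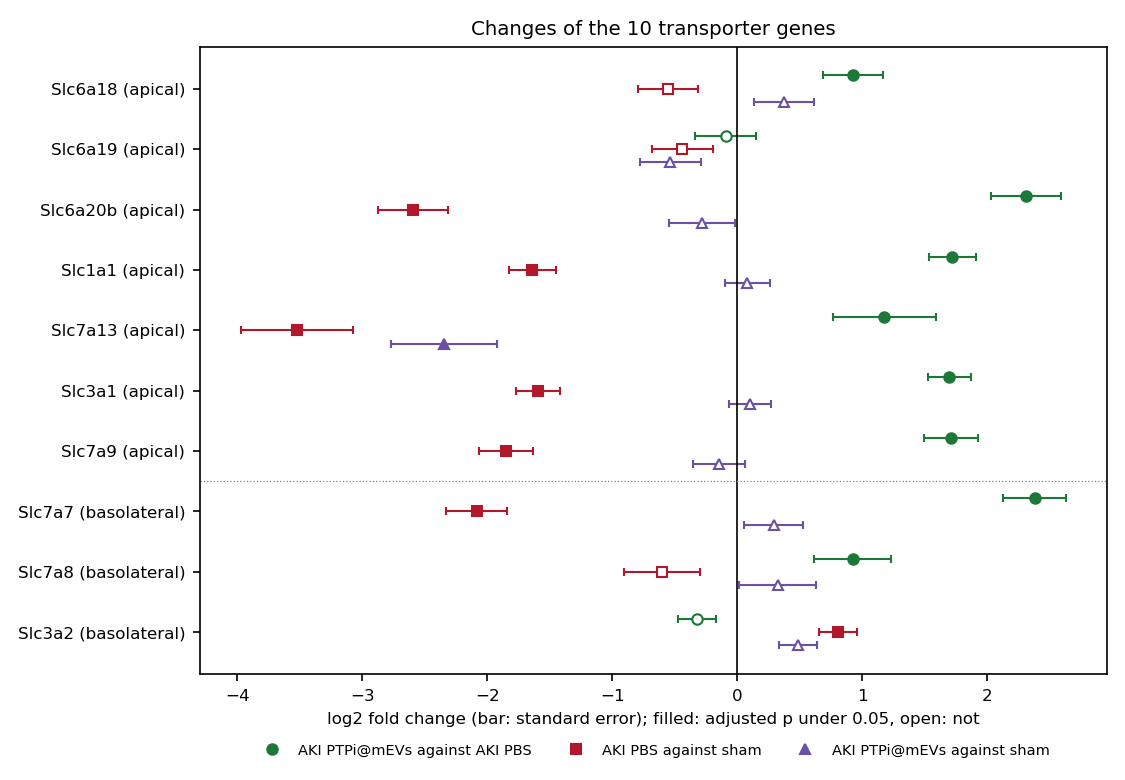
Log2 fold change of the 10 transporter genes (bars are the standard error, filled symbols have an edgeR adjusted p under 0.05), apical genes above the dotted line and basolateral genes below it, for PTPi@mEVs against AKI PBS (circles), AKI PBS against sham (squares) and PTPi@mEVs against sham (triangles). The squares lie left of 0 for 9 genes and right of it for Slc3a2 at 0.81, and the only filled triangle is Slc7a13 at -2.34.

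Ratios between partner chains within a library do not depend on library scaling. The log2 ratio of Slc7a7 to Slc3a2 counts was -1.31, -1.08 and -0.72 in PTPi@mEVs kidneys, -3.58, -3.93 and -3.56 in AKI PBS kidneys, and -0.79, -0.69 and -0.88 in sham kidneys. The AKI PBS libraries lay below all others, by 2.65 on average below PTPi@mEVs and by 2.90 below sham. Each of these differences had a two-sided exact permutation p of 0.1, the smallest that 3 against 3 libraries allow, and 0.24 after Benjamini-Hochberg adjustment over 24 tests (8 pairs of genes in 3 comparisons). The ratio of Slc7a8 to Slc3a2 averaged -1.47 ± 0.52 in PTPi@mEVs kidneys, -2.59 ± 0.27 in AKI PBS kidneys and -1.17 ± 0.07 in sham kidneys (SD, n = 3 each), with AKI PBS again below the rest in every library. The ratio of the heavy chains, Slc3a1 to Slc3a2, averaged -0.06 ± 0.17 in PTPi@mEVs kidneys, -2.12 ± 0.31 in AKI PBS kidneys and 0.30 ± 0.26 in sham kidneys (SD, n = 3 each).

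**Figure D4:**
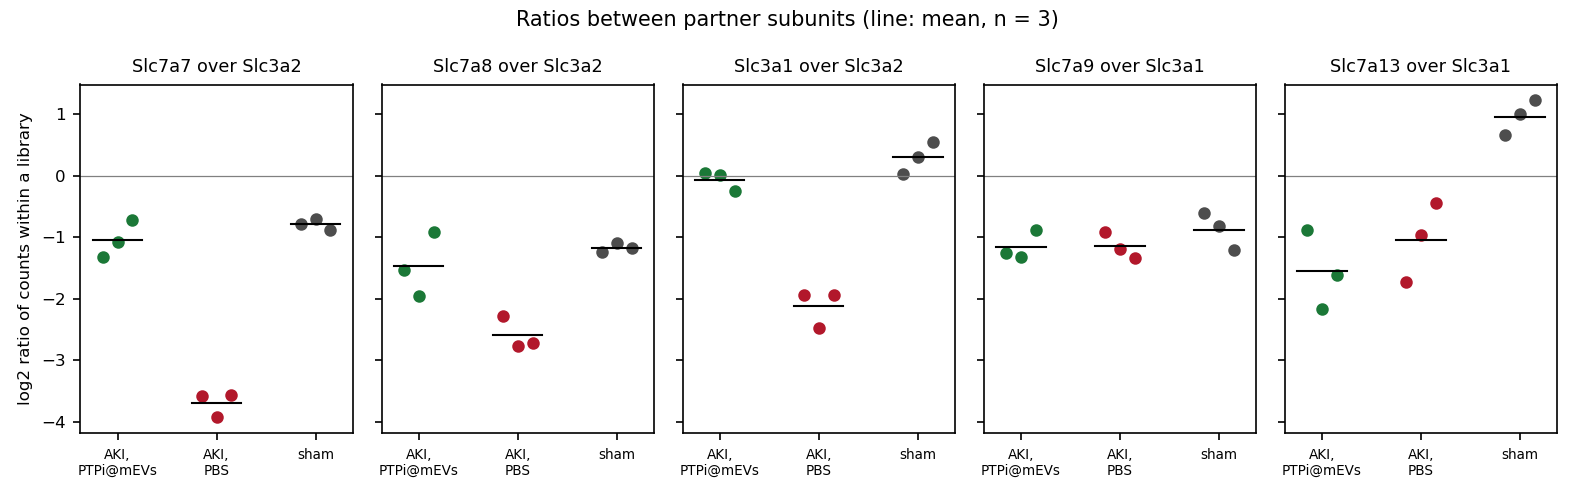
Log2 ratio of counts within a library for 5 pairs of genes, with points for the 3 libraries of each group and a line at the mean. Slc3a1 and Slc3a2 are heavy chains of different transporters, and the other pairs are partner chains. The AKI PBS points lie lowest for Slc7a7, Slc7a8 and Slc3a1 over Slc3a2, the groups overlap for Slc7a9 over Slc3a1, and both injured groups lie below sham for Slc7a13 over Slc3a1.

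Per kilobase of exon, the order of the transporter levels changed with injury. In sham kidneys Slc7a13 led at 393 ± 120 CPM per kb, followed by Slc3a1 at 185 ± 21.5 and Slc6a18 at 139 ± 11.7 CPM per kb, and these neighbours did not overlap. Slc3a2 at 96.3 and Slc7a9 at 85.3 CPM per kb overlapped each other, as did Slc6a20b, Slc1a1 and Slc7a8 at the low end. In AKI PBS kidneys Slc3a2 led at 168 ± 9.24 CPM per kb with no overlap with Slc6a18 at 94.8 ± 34.7, and Slc6a20b was lowest at 6.27 ± 2.24. Before division by length, the AKI PBS mean of Slc7a7 was lower, at 46.4 CPM against 53.5 CPM for Slc6a20b. In PTPi@mEVs kidneys Slc3a1 at 199 ± 18.6, Slc6a18 at 180 ± 31.3 and Slc3a2 at 135 ± 28.2 CPM per kb led, each overlapping the next. Slc7a13 at 77.4 ± 35.1, Slc7a9 at 77.3 ± 20.4 and Slc7a7 at 72.9 ± 30.7 CPM per kb followed and overlapped each other. Of the summed per-kb level of the 10 genes, Slc3a2 made up 15.1% in PTPi@mEVs kidneys, 35.0% in AKI PBS kidneys and 8.67% in sham kidneys. Slc7a13 made up 8.71% in PTPi@mEVs kidneys, 7.11% in AKI PBS kidneys and 34.4% in sham kidneys.

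Reads could be shared with a gene on the opposite strand at 4 of the 10 loci, since the strand setting of the counting is not given in the sources used here. Exons of Slc6a20b overlap those of Sacm1l on the opposite strand by 1800 bases, and those of Slc1a1, Slc3a1 and Slc7a7 overlap 4430402I18Rik, Prepl and Oxa1l by 1524, 601 and 232 bases. In AKI PBS against sham and in PTPi@mEVs against AKI PBS kidneys the changes of these neighbours had the sign of the transporter gene's and were smaller. Their log2 change in AKI PBS against sham kidneys was -1.01 ± 0.15 for Sacm1l, -1.46 ± 0.19 for 4430402I18Rik, -0.96 ± 0.13 for Prepl and -0.29 ± 0.13 for Oxa1l, the last not called. In PTPi@mEVs against AKI PBS kidneys it was 1.33 ± 0.15 for Sacm1l, 0.72 ± 0.19 for 4430402I18Rik, 1.09 ± 0.13 for Prepl and 0.43 ± 0.13 for Oxa1l, all 4 called. At the other loci, 3.51% of the 50-base stretches in Slc3a2 transcripts also occur in other genes, mainly Lman2l. The share was 0.574% for Slc7a13, 0.452% for Slc6a18, 0.081% for Slc7a8 and 0% for Slc6a19 and Slc7a9. The part of these overlaps and shared stretches in the transporter results was not tested.

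Of 30 further carriers and accessory genes of amino acid and peptide transport, 28 were tested, and they moved in both directions. In PTPi@mEVs against AKI PBS kidneys 9 were called higher and 8 lower, in AKI PBS against sham kidneys 8 higher and 12 lower, and in PTPi@mEVs against sham kidneys 3 higher and 1 lower. Of all genes tested, 25.4% were called higher and 25.8% lower in the first comparison, and 27.8% and 27.9% in the second. In the third the shares were 7.43% higher and 5.79% lower. The 3 higher in the third fell to 0 without sham replicate 1, sham replicate 2 or PTPi@mEVs replicate 2. All genes called there made up 6.72%, 5.34% and 4.95%, in the same order. The other 2, Slc15a1 and Slc7a10, fell under the low-count filter. Slc36a1, a proton-coupled carrier of small neutral amino acids, averaged 68.3 ± 2.33 CPM in PTPi@mEVs kidneys, 18.9 ± 5.50 CPM in AKI PBS kidneys and 83.3 ± 13.6 CPM in sham kidneys (SD, n = 3 each). Slc6a13, a basolateral taurine and GABA carrier, averaged 210 ± 35.6 CPM in PTPi@mEVs kidneys, 49.5 ± 13.0 CPM in AKI PBS kidneys and 219 ± 30.9 CPM in sham kidneys. Slc38a3 (SNAT3), which brings glutamine in from the blood, was called higher in PTPi@mEVs than in sham kidneys, by 0.84 ± 0.20 (edgeR adjusted p = 0.015). It also rose by 1.99 ± 0.21 in PTPi@mEVs against AKI PBS kidneys and fell by 1.14 ± 0.21 in AKI PBS against sham kidneys. Its call above sham was lost without sham replicate 1 or 2 or PTPi@mEVs replicate 2.

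Slc1a4 (ASCT1), an alanine, serine and cysteine carrier, was likewise above sham in PTPi@mEVs kidneys, by 0.70 ± 0.20 (edgeR adjusted p = 0.037), and fell by 1.71 ± 0.21 in AKI PBS against sham kidneys. Its call above sham was lost in the same refits as that of Slc38a3. Slc15a2, the peptide carrier PEPT2 of the later proximal tubule, was below sham in both injured groups, by -1.08 ± 0.18 in PTPi@mEVs kidneys (edgeR adjusted p = 0.0030) and by -1.24 ± 0.18 in AKI PBS kidneys (edgeR adjusted p = 0.00011). Between the injured groups it differed by 0.16 ± 0.18, which did not pass. Slc15a2 thus shared with Slc7a13 a level below sham in both injured groups.

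Slc7a5 (LAT1), Slc7a11 (the cystine and glutamate exchanger xCT) and Slc7a6 (y+LAT2) are known to pair with Slc3a2, and Slc7a6 was chosen after its values were seen. They were called higher in AKI PBS against sham kidneys and lower in PTPi@mEVs against AKI PBS kidneys. Slc7a5 averaged 2.41 ± 0.33 CPM in PTPi@mEVs kidneys, 8.23 ± 3.74 CPM in AKI PBS kidneys and 1.30 ± 0.41 CPM in sham kidneys (SD, n = 3 each). Slc7a6, a close relative of Slc7a7, averaged 16.4 ± 3.77 CPM in PTPi@mEVs kidneys, 27.4 ± 3.79 CPM in AKI PBS kidneys and 15.3 ± 4.0 CPM in sham kidneys. Slc7a11 had 15, 9 and 4 counts in PTPi@mEVs kidneys, 82, 130 and 67 counts in AKI PBS kidneys, and 1, 2 and 2 counts in sham kidneys, so its fitted fold changes against sham depend on very few counts. Slc38a2 (SNAT2) and Slc7a1 (CAT1), carriers of other families, were called in the same directions, at 1.43 ± 0.21 and 1.70 ± 0.28 in AKI PBS against sham kidneys and -1.34 ± 0.21 and -1.23 ± 0.28 in PTPi@mEVs against AKI PBS kidneys.

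**Figure D5:**
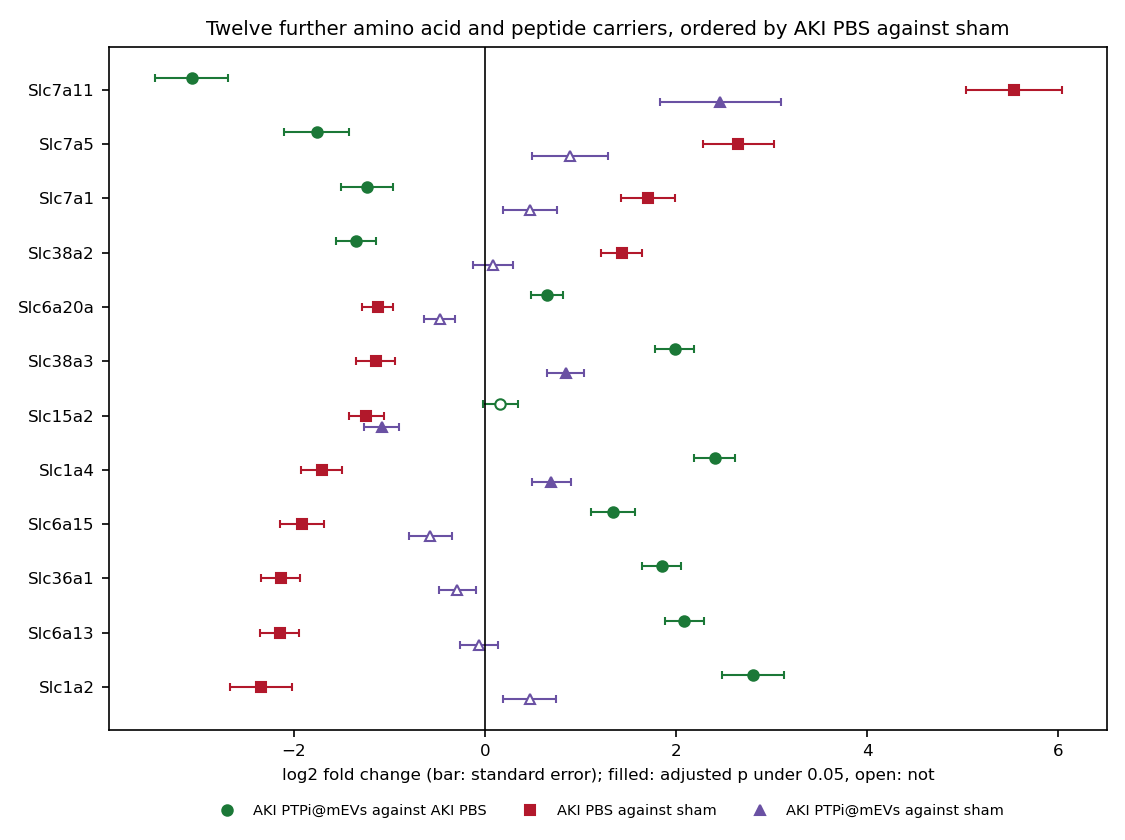
Log2 fold change (bars are the standard error, filled symbols have an edgeR adjusted p under 0.05) of 12 further carriers, ordered by AKI PBS against sham (squares), with PTPi@mEVs against AKI PBS (circles) and PTPi@mEVs against sham (triangles). Slc7a11, Slc7a5, Slc7a1 and Slc38a2 have squares right of 0, the other 8 carriers have squares left of it, and the Slc7a11 values against sham rest on 1 to 2 counts in each sham library.

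ATF4, the transcription factor of the amino acid response, is known to act on genes such as Slc3a2 and Slc7a11. Atf4 rose by 2.09 ± 0.23 in AKI PBS against sham kidneys (edgeR adjusted p = 1.06e-05) and fell by 1.67 ± 0.22 in PTPi@mEVs against AKI PBS kidneys (edgeR adjusted p = 7.43e-05). Of 12 genes listed as Atf4 and its targets, 2 were called higher and 2 lower in PTPi@mEVs against AKI PBS kidneys, 8 higher and 1 lower in AKI PBS against sham kidneys, and 6 higher and 0 lower in PTPi@mEVs against sham kidneys. The shares of all genes called higher and lower were 25.4% and 25.8% in the first comparison and 27.8% and 27.9% in the second. They were 7.43% and 5.79% in the third. Atf5, a related factor, stayed above sham in PTPi@mEVs kidneys by 1.64 ± 0.21 (edgeR adjusted p = 0.00058). The gene called lower in AKI PBS against sham kidneys was Shmt2, an enzyme of mitochondrial serine metabolism, at -2.13 ± 0.21. It changed by 1.93 ± 0.21 in PTPi@mEVs against AKI PBS kidneys. Whether ATF4 acts on the transporter genes in these kidneys was not tested.

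Hnf4a and Hnf4g, transcription factors of proximal tubule genes, went the other way. Hnf4a changed by 1.19 ± 0.23 in PTPi@mEVs against AKI PBS kidneys (edgeR adjusted p = 0.00099) and by -1.14 ± 0.23 in AKI PBS against sham kidneys (edgeR adjusted p = 0.0011). Hnf4g changed by 1.38 ± 0.26 in PTPi@mEVs against AKI PBS kidneys (edgeR adjusted p = 0.00085) and by -1.49 ± 0.26 in AKI PBS against sham kidneys (edgeR adjusted p = 0.00039). Neither passed in PTPi@mEVs against sham kidneys, at 0.05 for Hnf4a and -0.11 for Hnf4g. Whether either factor acts on the transporter genes was not tested.

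The genes with the profile most like each transporter gene over the 9 libraries were also found, by the root-mean-square distance of centred log2 CPM, among 12043 tested genes whose log2 CPM averaged 2 or more. A short distance is a description of these libraries and not of shared function. The nearest to Slc3a1 were Stradb at 0.085, Nxt2 at 0.090 and Slc1a1 at 0.090. The nearest to Slc6a20b were Gk, Bhmt2 and Galnt11, at 0.14 to 0.16, and those to Slc7a9 were Agtr1a, C330002G04Rik and Tinag, at 0.14 to 0.16. Slc7a7 was nearest to Slc5a9 at 0.17 and then Sult1c2 and Gnpda1, and Slc3a2 was nearest to Gm48529 at 0.11, then Prss23 and Zkscan17. Slc6a18 was nearest to Zfp984, Cnpy4 and Bcl2l12, Slc6a19 to Mdk, Gm44250 and Spp2, and Slc7a8 to Unc5c, Hexa and Gaa. Slc7a13 had no close neighbour, since its nearest genes, Sec14l3, Dcst1 and Slc22a19, lay 0.34 to 0.36 away.

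Markers of other cells moved between the groups as well. Of 4 loop of Henle markers, 3 were called higher in PTPi@mEVs against AKI PBS kidneys and 4 lower in AKI PBS against sham kidneys. Among all genes, 25.4% were called higher in the first of these comparisons and 27.9% lower in the second. Kcnj1, a potassium channel, averaged 219 ± 36.3 CPM in PTPi@mEVs kidneys, 44.3 ± 5.13 CPM in AKI PBS kidneys and 234 ± 1.23 CPM in sham kidneys, and the tight junction gene Cldn10 averaged 188 ± 40.5 CPM in PTPi@mEVs kidneys, 23.3 ± 3.26 CPM in AKI PBS kidneys and 248 ± 14.6 CPM in sham kidneys (SD, n = 3 each). Of 4 principal cell markers, 2 were called higher and 1 lower in PTPi@mEVs against AKI PBS kidneys and 2 lower in AKI PBS against sham kidneys. The share of all genes called lower was 25.8% in the first of these comparisons.

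Summed neutrophil markers were 2.01 ± 0.23 CPM in PTPi@mEVs kidneys, 15.8 ± 6.51 CPM in AKI PBS kidneys and 0.517 ± 0.097 CPM in sham kidneys (SD, n = 3 each). Of the 5 neutrophil markers, 2 had 0 counts in all 3 sham libraries. Summed red blood cell markers were 27.3 ± 11.4 CPM in PTPi@mEVs kidneys, 131 ± 59.5 CPM in AKI PBS kidneys and 79.1 ± 12.7 CPM in sham kidneys. The 5 macrophage markers moved apart. Csf1r, the receptor of colony stimulating factor, averaged 18.8 ± 3.88 CPM in PTPi@mEVs kidneys, 13.98 ± 0.32 CPM in AKI PBS kidneys and 54.5 ± 4.06 CPM in sham kidneys, and was called lower in both injured groups than in sham. Cd68, a lysosomal glycoprotein, averaged 20.2 ± 0.65 CPM in PTPi@mEVs kidneys, 33.1 ± 15.8 CPM in AKI PBS kidneys and 6.81 ± 2.10 CPM in sham kidneys, and was called higher in both injured groups than in sham. Of 5 tubular injury markers, 3 were called lower in PTPi@mEVs against AKI PBS kidneys, 5 were called higher in AKI PBS against sham kidneys and 4 in PTPi@mEVs against sham kidneys. The shares of all genes called in these directions were 25.8%, 27.8% and 7.43%, in the same order. Krt20, a keratin, averaged 147 ± 71.0 CPM in PTPi@mEVs kidneys, 1010 ± 203 CPM in AKI PBS kidneys and 2.32 ± 0.54 CPM in sham kidneys. Havcr1 (KIM-1) averaged 770 ± 513 CPM in PTPi@mEVs kidneys, 700 ± 517 CPM in AKI PBS kidneys and 2.21 ± 0.045 CPM in sham kidneys, and its difference between the injured groups did not pass (edgeR adjusted p = 0.89). The part of these cells in the transporter levels was not tested.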

How the data were processed

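RNA from mouse kidney was sequenced from a Tn5-based library kit, per the labels' protocols. Each value is the number of reads counted on a gene, an unnormalised whole-number count deposited by the authors and made with STAR and HTSeq per the submitters' processing notes. Those notes name the human build GRCh38.p14, while the identifiers are mouse Ensembl identifiers, so no coordinates of the files are used, and the strand setting is not given in the sources used here. Symbols were matched for 52073 of 56923 identifiers, and 0 columns of samples were left unmapped.

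The counts went into edgeR 4.0.16 under R 4.3.3. After filterByExpr with the groups, 17036 genes remained. A robust glmQLFit with a mean for each group, over all 9 libraries and with TMM scaling, left 6 residual degrees of freedom, and glmQLFTest with Benjamini-Hochberg adjustment gave the contrasts. The fit was also run on simulated counts with few genes changed, equally up and down. That run does not cover changes as widespread as those seen here. DESeq2 1.42.0, limma voom (limma 3.58.1), other scalings, filters and sample sets, and a replicate block were alternatives. Ratios between genes within a library used a pseudocount of 0.5 and two-sided exact permutation tests, and the profiles used a prior count of 2. Levels per kilobase used the combined length of all annotated exons of each gene in GENCODE M21, so the order of genes depends on that annotation. Intervals cover the spread between libraries, and PCR copies could not be told from separate molecules.

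The transporter genes and the other lists were chosen with earlier results of these data known. Named genes are the 10 transporters, up to 12 called carriers, up to 3 genes of each other list by smallest adjusted p, and the 3 nearest profiles of each transporter; Cltrn, Havcr1, Slc7a6 and the genes overlapping a transporter were added after their values were seen. Some listed genes and one searched motif are not reported here. Plots were made with matplotlib 3.10.9 in Python 3.11.15.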

Additional observations from a re-analysis of the deposited data

How the results depend on the processing

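In PTPi@mEVs against AKI PBS kidneys, 1 transporter gene (Slc3a2) was called lower when libraries were scaled by their totals. Against sham, 2 transporter genes were called and 1 was higher with DESeq2, and likewise with no low-count filter, and 1538 genes were called lower in PTPi@mEVs kidneys when only these groups were fitted. The share of all genes called in PTPi@mEVs against sham kidneys was 15.5% with DESeq2 and 8.79% with no low-count filter. Scaling by totals moved the median of all genes to -0.13 in PTPi@mEVs against AKI PBS kidneys, where 42.7% of calls were higher against 49.6% with TMM, and to 0.11 in AKI PBS against sham kidneys.

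With each library left out in turn, transporter genes called ranged from 6 to 8 in PTPi@mEVs against AKI PBS (6 to 8 higher, 0 to 1 lower), 7 to 9 in AKI PBS against sham, and 1 to 2 in PTPi@mEVs against sham (0 to 1 higher, 1 to 2 lower). The share of all genes called in these refits was 41.4% to 49.6%, 45.7% to 54.7% and 4.95% to 19.5%, in the same order. All genes called in PTPi@mEVs against sham ranged from 878 to 3395, with 488 to 1917 higher and 390 to 1478 lower: 3395 without AKI PBS replicate 3, 1184 and 938 without sham replicates 1 and 2, and 1487 and 878 without PTPi@mEVs replicates 1 and 2. The basolateral median ranged from 0.37 to 1.23 in PTPi@mEVs against AKI PBS and from -0.10 to 0.57 in PTPi@mEVs against sham, lowest without PTPi@mEVs replicate 3. Signs that turned belonged to differences that passed in neither setting. These log2 changes ranged, in PTPi@mEVs against AKI PBS, from -0.48 to 0.12 for Slc6a19 and from -0.025 to 0.38 for Slc15a2. In PTPi@mEVs against sham they ranged from -0.073 to 0.23 for Slc1a1, from -0.10 to 0.49 for Slc7a7, from -0.24 to 0.60 for Slc7a8, from -0.18 to 0.047 for Slc6a13, from -0.19 to 0.045 for Cubn, from -0.018 to 0.11 for Hnf4a and from -0.24 to 0.063 for Hnf4g. The causes were not tested.

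Of 240 refits of a transporter gene's change under the other alternatives, 225 kept direction and call, 12 newly passed and 3 no longer passed. The replicate block called 8491 genes in PTPi@mEVs against AKI PBS, 9213 in AKI PBS against sham and 2050 in PTPi@mEVs against sham, with 8, 8 and 1 transporter genes, the gain being Slc6a18 (-0.62, edgeR adjusted p = 0.023). Libraries with the same number correlated at -0.19 to 0.11 in their deviations from the group means, and 1 of 9 correlated best with its own number, so the numbers were not taken to pair samples. Each group has 3 libraries, which limits precision more than depth does.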
